A study of Mus musculus with 66 samples.

Results

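The regions described here are the active promoter-like regions of mouse small intestinal organoids, chosen from a table of 94469 regions that is the union of the peaks of all ATAC-seq and histone mark libraries. A region was taken when its mean normalised score over the 9 H3K4me3 libraries lay in the top 15% of all regions (above 11.1) and its mean over the 9 H3K27me3 libraries did not lie in the top 10% (not above 18.2). This gave 12853 regions, 13.6% of the table. Another 1296 regions had strong H3K4me3 together with H3K27me3 in its top 10%, and 80320 regions had no strong H3K4me3. The scores that chose the regions are given below as a description only, without tests. The label was checked against the annotation, which the choice did not use: a start site was found at most 500 bp away for 10560 of the 12839 on annotated chromosomes (82.2%), for 75.3% of the regions with both marks and for 8.17% of the regions without strong H3K4me3.

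Organoids of an Lgr5 GFPDTR/+ line, in which 1 Lgr5 allele carries GFP and the diphtheria toxin receptor, were grown in 3 media. ENR, the conventional medium, holds EGF, Noggin and R-spondin-1. CV is ENR with 3 μM CHIR99021, an inhibitor of GSK3 that switches on Wnt signalling, and 1 mM valproic acid, an inhibitor of histone deacetylases, and enriches for stem cells. EN is ENR without R-spondin-1 and enriches for enterocytes. ATAC-seq, which reads open DNA by Tn5 insertion, and RNA-seq had 4 libraries per culture. ChIPmentation, which is ChIP with tagmentation on the beads, had 3 libraries per culture for each of H3K27ac, H3K4me3 and H3K27me3, and 1 per culture for the transcription factor Hnf4g. The labels do not state that libraries came from separate cultures, so the p-values measure the spread between libraries, which may be technical. Because only CV holds a deacetylase inhibitor, its effect on H3K27ac and that of the rest of the medium cannot be told apart.

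As background, H3K4me3 is laid down at the first nucleosomes of active genes by the SET1 and MLL complexes, which are drawn to unmethylated CpG islands. H3K27ac is added by the acetyltransferases p300 and CBP at active promoters and enhancers and is removed by histone deacetylases, while H3K27me3 is the mark of Polycomb repression. In the intestine, Wnt signalling holds crypt cells in the stem cell state, and Hnf4a and Hnf4g are nuclear receptors known for their part in enterocyte genes.

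The library totals for ATAC and the histone marks are sums of scores already normalised between libraries, so they do not show sequencing depth. ATAC scores summed to 1752385 to 2109261 per library and rose from CV to ENR to EN without overlap. H3K27ac scores summed to between 1345873 and 1760511, H3K4me3 scores to between 817265 and 1100967, and H3K27me3 scores to between 1010511 and 1327017. RNA libraries held between 5630951 and 8859744 counts over the transcripts listed, which are those with a quantified protein. In RNA, the summed CPM of the 5 stem cell markers was 457 to 518 in CV, 1708 to 1851 in ENR and 36.0 to 40.1 in EN, and that of the 5 enterocyte markers was 2182 to 2262, 2376 to 2809 and 13360 to 14811. Secretory cell markers moved as well. In CV, ENR and EN, 3 goblet cell markers summed to 796 to 893, 1550 to 1692 and 7521 to 8265, and 3 Paneth cell markers to 2326 to 2616, 3006 to 3152 and 1058 to 1269. The 3 enteroendocrine markers summed to 24.1 to 35.9, 491 to 510.3 and 1283 to 1763, and 2 tuft cell markers to 0.539 to 2.41 in CV and 55.9 to 74.4 in EN. EN thus differed from CV in the summed markers of each of these cell types and not only of enterocytes. Each sum leans on its most abundant markers, so a single marker can move otherwise. In both mRNA and protein, the paper reports stem cell markers as enriched in CV and depleted in EN. By microscopy it reports Lgr5 GFP cells as the main cell type in CV. It names Defa6, Muc2, Reg4 and Dclk1 as not enriched in EN over ENR. The sums given here are of RNA alone and over several markers, so they are not the same measure. Markers of mesenchymal or immune cells, 4 of 6 of which were in the table, summed to 5.42 to 7.68 in CV, 8.31 to 9.82 in ENR and 23.5 to 29.4 in EN, and none of these listed markers was at 0 in all libraries. The part of these marker levels in the gene list results below was not tested. In bulk libraries, fewer cells of a type and less signal per cell cannot be told apart.

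The 250 bases before the start site are printed for 6 of these promoters, because they belong to regions that moved most or held the most Hnf4g reads and differ in composition. All are on mm9, read 5′ to 3′ in the direction of the gene, and capitals mark the letters of a motif. Tgfbi, which encodes a secreted matrix protein, had the strongest gain of ATAC signal in EN over CV at a gene start (chr13:56710670-56710919, plus strand), and its window holds 1 GC box at position −97 from the start. Cdk2ap1, an inhibitor of cell cycle entry, had the largest ATAC fall (chr5:124802243-124802492, minus strand), with GC boxes at −197 and −108. Sis, which encodes the brush border sucrase-isomaltase, had the largest H3K27ac rise (chr3:72770789-72771038, minus strand). Its AT-rich window holds the letters of a TATA box at −113, a match by sequence alone, and no GC box. Tgif2, a repressor of TGF-beta targets, was among the 5 largest H3K27ac falls (chr2:156666452-156666701, plus strand), with GC boxes at −91 and −50. Slc25a1, the mitochondrial citrate carrier, (chr16:17928313-17928562, minus strand) and Mast3, a serine/threonine kinase, (chr8:73320846-73321095, minus strand) held some of the most Hnf4g reads in EN, with 4 GC boxes beside 1 CCAAT box and with 3 GC boxes.
Tgfbi: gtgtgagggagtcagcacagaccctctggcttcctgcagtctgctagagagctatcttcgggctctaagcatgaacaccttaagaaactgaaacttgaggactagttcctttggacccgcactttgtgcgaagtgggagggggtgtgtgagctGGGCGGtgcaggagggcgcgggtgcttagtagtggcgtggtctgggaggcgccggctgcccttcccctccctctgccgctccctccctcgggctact
Cdk2ap1: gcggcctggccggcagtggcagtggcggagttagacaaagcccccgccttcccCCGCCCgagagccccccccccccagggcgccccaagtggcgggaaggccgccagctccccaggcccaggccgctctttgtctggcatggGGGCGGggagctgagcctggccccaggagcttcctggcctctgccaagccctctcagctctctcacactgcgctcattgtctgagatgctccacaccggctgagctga
Sis: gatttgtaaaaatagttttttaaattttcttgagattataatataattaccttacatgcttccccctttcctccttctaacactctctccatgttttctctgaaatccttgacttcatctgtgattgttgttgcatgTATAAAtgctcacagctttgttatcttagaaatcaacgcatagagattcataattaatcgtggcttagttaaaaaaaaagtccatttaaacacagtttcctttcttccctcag
Tgif2: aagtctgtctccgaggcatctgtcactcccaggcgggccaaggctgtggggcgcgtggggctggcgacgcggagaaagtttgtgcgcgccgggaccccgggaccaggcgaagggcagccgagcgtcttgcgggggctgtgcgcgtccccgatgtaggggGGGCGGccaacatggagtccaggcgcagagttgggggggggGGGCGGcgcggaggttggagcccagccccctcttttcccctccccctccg
Slc25a1: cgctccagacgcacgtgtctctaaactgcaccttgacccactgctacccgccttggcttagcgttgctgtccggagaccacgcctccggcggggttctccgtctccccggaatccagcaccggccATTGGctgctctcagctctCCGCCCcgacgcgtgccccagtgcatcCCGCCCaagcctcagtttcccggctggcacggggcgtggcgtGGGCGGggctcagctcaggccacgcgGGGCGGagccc
Mast3: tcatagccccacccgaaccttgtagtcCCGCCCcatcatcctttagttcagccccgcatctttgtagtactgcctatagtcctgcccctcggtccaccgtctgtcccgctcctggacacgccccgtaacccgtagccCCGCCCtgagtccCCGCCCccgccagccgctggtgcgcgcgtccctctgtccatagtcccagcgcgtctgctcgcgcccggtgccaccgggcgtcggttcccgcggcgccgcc

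All these windows lie inside or at the edge of a region, and none overlaps an annotated exon. Across the genome, 12 motifs were searched on both strands of the 250 bases before every annotated start: the GC box (GGGCGG), the NF-Y CCAAT box (CCAAT), ETS (CCGGAAG), NRF1 (GCGCATGCG), YY1 (ATGGCGGC), CREB (TGACGTCA), ZBTB33 (TCTCGCGAG), E2F (TTTNNCGC), the TATA box (TATAAA), HNF4 (CAAAGTCCA), TCF (CTTTGAT) and CDX (TTTATGG). At the 21060 starts with one of these regions, 63.8% of windows held a GC box, 16.4% an ETS motif and 3.42% an NRF1 motif. At the 18991 starts with no region the shares were 13.0%, 2.29% and 0.353%, and over all starts they were 41.1%, 8.97% and 1.82%. Starts with both marks held a GC box more often (71.0%) and the other 2 motifs less often (5.17% and 1.22%). The TATA box went the other way, with 4.85% at starts with these regions, 17.5% at starts with none and 10.5% over all starts. The CCAAT box hardly separated them (34.2%, 32.0% and 32.8%), and the strict HNF4 letters were rare at 0.313%, 0.390% and 0.381%. From 250 bases before to 50 after the start, the medians were 62.7% GC and 23 CpG where one of these regions lay and 48.3% and 4 where no region lay, so GC-rich motifs and composition move together here.

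The regions were wide and rich in CpG. Their median width was 1358 bp, against 965 bp for regions with both marks and 192 bp for the others, and they covered 45.8% of all bases of the table. Since the scores are sums over a region, a wide region reaches the H3K4me3 threshold more easily, and ranking by score per kb gave 13347 regions, of which 10830 were shared. GC content at the centre had a median of 61.7% and the observed to expected CpG ratio 0.71, against 48.0% and 0.21 in the regions without strong H3K4me3. Regions with both marks were richer still, at 69.0% and 0.81. In all, 10510 of 22232 protein-coding genes (47.3%) had such a region within 500 bp of a start, and 1184 regions lay at starts of 2 or more genes. The 2279 regions away from starts were narrower (median 790 bp against 1456 bp), had lower mean H3K4me3 scores (median 18.4 against 62.1) and less GC (53.3% against 63.7%). Their median distance to the nearest start was 4939 bp, and 50.2% lay within 5 kb. Most regions stood alone, but 1054 runs with gaps of at most 1000 bp joined 2464 of them. The longest run spanned 4226 bp in 4 regions at Trim8 (chr19:46574283-46578509), followed by runs at Efna1, Mxi1, Spry2 and Zfp36l2 of 4003 to 4189 bp, the last with 7 regions.

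At the lower edge of the H3K4me3 rule, the regions near Ddit3, Tlr5 and Dgke had a mean score of 11.2 and were taken, while those near BC046404, Aloxe3 and Olfr16 had 11.1 and were not. At the H3K27me3 limit, the regions near Specc1, Arhgap22 and Meig1 (18.2) were taken and those near Pnpla3, AI836003 and Rtn4r (18.3) were not. The H3K27me3 rule weighed most on the X chromosome, where it left out 169 of 332 regions with strong H3K4me3 (50.9%), against 1122 of 13798 on the autosomes (8.13%). In every library the median H3K27me3 score of strong H3K4me3 regions was higher on X (13 to 26) than on the autosomes (4 to 10).

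H3K4me3 is the mark that defines these regions. They took 78.4% ± 1.59 (SD, n = 3 libraries) of all H3K4me3 score in CV, 85.0% ± 0.219 in ENR and 80.8% ± 2.32 in EN, and their mean score was 54.6, 56.2 and 64.8. The highest means were at Prdm16, which encodes a zinc finger regulator (chr4:154009949-154011727), Msl1, a subunit of a histone H4 acetyltransferase complex (chr11:98655874-98658452), and Erf, an ETS-type repressor (chr7:26033904-26036052). At Prdm16 the H3K4me3 scores were 165, 161 and 141 in CV, 281, 236 and 313 in ENR, and 648, 378 and 171 in EN, so the EN libraries differed from each other by more than CV and ENR did. Scores at Msl1 were 181, 172 and 145 in CV, 272, 243 and 313 in ENR, and 613, 330 and 187 in EN. Scores at Erf were 208, 192 and 143 in CV, 300, 253 and 285 in ENR, and 490, 387 and 169 in EN. EN replicate 1 stood apart at the top of the range in all 3: the 99th percentile of the regions' H3K4me3 score was 282 there, against 215 and 187 in the other EN libraries, 160 to 187 in ENR and 132 to 136 in CV, while its median of 50 was the lowest of the EN libraries.

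**Figure D1:**
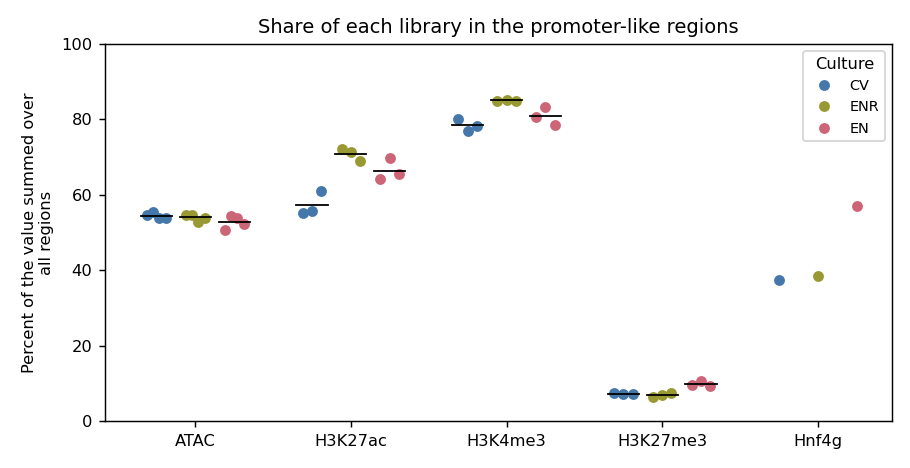
Share of each library's total score that lay in the 12853 regions, in percent, for ATAC, H3K27ac, H3K4me3, H3K27me3 and Hnf4g (reads); each dot is a library, colours are cultures and each line is the mean of a culture. H3K27ac shares were 57.4% in CV, 70.9% in ENR and 66.4% in EN, while ATAC shares stayed between 52.7% and 54.4%.

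Libraries of EN lay above all libraries of CV at 2793 of the regions for H3K4me3 and below at 1045, beside 7.66% and 6.44% of all regions with any H3K4me3 score. Against ENR, EN was above at 2536 and below at 894 (17.0% and 2.85% of all), and CV was above ENR at 1275 and below at 1783 (14.0% and 2.77% of all). The rule that chose the regions used these columns, so nothing is read from the shares. H3K27me3 was low throughout, at 7.15% ± 0.122 of the library score in CV, 6.83% ± 0.555 in ENR and 9.78% ± 0.781 in EN, with mean scores of 6.96, 5.56 and 8.74. EN libraries were above CV at 1070 regions and below at 255 (7.17% and 5.18% of all regions), above ENR at 1923 and below at 105 (11.4% and 2.64%), and CV was above ENR at 1222 and below at 340 (9.41% and 4.13%). This mark too was part of the choice.

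DNA accessibility at these promoters changed at many sites but by small amounts. Their share of the ATAC score was 54.4% ± 0.755 in CV, 54.0% ± 0.888 in ENR and 52.7% ± 1.66 in EN (SD, n = 4 libraries). Between EN and CV, 2929 regions rose and 1838 fell (limma on log2(score + 1), adjusted p under 0.05 over all regions tested). Over all 94166 regions tested, 19.6% rose and 15.6% fell, so the regions were called about as often (37.1%) as the whole table (35.2%). Changes of more than 1 on the log2 scale were less common than in the table at large: 294 regions (2.29%) rose and 456 (3.55%) fell by that much, against 12.7% and 10.8% of all regions. The median ATAC score was 60.3 in these regions and 4.58 in those without strong H3K4me3. The part of the score level in these shares was not tested. The split of called regions depended on the scaling between libraries, with 2134 higher and 2480 lower after median ratio scaling and 1456 and 3236 after quantile normalization, and 1454 rose and 1838 fell under all 3.

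The largest rises and falls named here and for H3K27ac are those among called regions at starts of named protein-coding genes whose libraries did not overlap between the 2 cultures. For ATAC from CV to EN, the rises were at Tgfbi, Apoa4, Fbp1, Ccr9 and Ostb. At Tgfbi (region chr13:56710502-56711367) the scores were 10, 12, 13 and 8 in CV, 40, 41, 33 and 25 in ENR, and 63, 77, 55 and 75 in EN, a log2 difference between EN and CV of 2.55 ± 0.19 (SE, limma adjusted p = 2.7e-08). At Apoa4 (chr9:46049201-46049796), which encodes an apolipoprotein of chylomicrons, they were 2, 2, 2 and 4 in CV, 4, 4, 3 and 1 in ENR, and 24, 12, 13 and 18 in EN (2.33 ± 0.34, limma adjusted p = 3.2e-05). Tgfbi thus opened in steps over the 3 cultures, while Apoa4 was low in both CV and ENR and high only in EN. At Fbp1 (chr13:62988866-62989821), the gluconeogenic fructose bisphosphatase, CV stood alone with 26, 17, 17 and 28 against 90, 91, 77 and 78 in ENR and 79, 104, 128 and 141 in EN (2.31 ± 0.19, limma adjusted p = 6.0e-08). The same order was seen at Ccr9 (chr9:123587151-123588274), a chemokine receptor, where CV scores of 25, 29, 28 and 20 met ENR scores of 84, 89, 82 and 82 and EN scores of 106, 120, 96 and 105 (2.03 ± 0.13, limma adjusted p = 5.2e-09). Ostb, a subunit of the basolateral bile acid transporter (chr9:65270291-65271350), rose by 1.93 ± 0.20 (limma adjusted p = 9.2e-07), with ENR between the other cultures.

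The largest ATAC falls were of 2 kinds, with some promoters open in both CV and ENR and others open in CV alone. At Cdk2ap1 (chr5:124802180-124802628) the ATAC scores were 51, 61, 51 and 60 in CV, 49, 37, 29 and 52 in ENR, and 7, 5, 7 and 11 in EN, a log2 difference between EN and CV of −2.78 ± 0.22 (limma adjusted p = 3.8e-08). At Clca4 (chr3:144512153-144512977), of the calcium-activated chloride channel regulators, they were 65, 66, 55 and 64 in CV, 85, 84, 95 and 107 in ENR, and 10, 5, 14 and 9 in EN (−2.67 ± 0.21 against CV, and −3.23 ± 0.21 against ENR, limma adjusted p = 3.8e-08 and 2.6e-08). Both were open in CV and ENR and nearly closed in EN. By contrast, Fbxl2, of an F-box family of ubiquitin ligase subunits, Tuba1a, an alpha-tubulin, and Spata6, a gene known from sperm development, had high scores in CV only. Spata6 (chr4:111392334-111393688) had 153, 114, 123 and 127 in CV, 28, 32, 45 and 37 in ENR, and 31, 16, 25 and 17 in EN. Fbxl2 fell by 2.68 ± 0.23, Tuba1a by 2.59 ± 0.23 and Spata6 by 2.53 ± 0.20 in log2 units between CV and EN (limma adjusted p = 1.2e-07, 1.9e-07 and 3.5e-08).

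**Figure D2:**
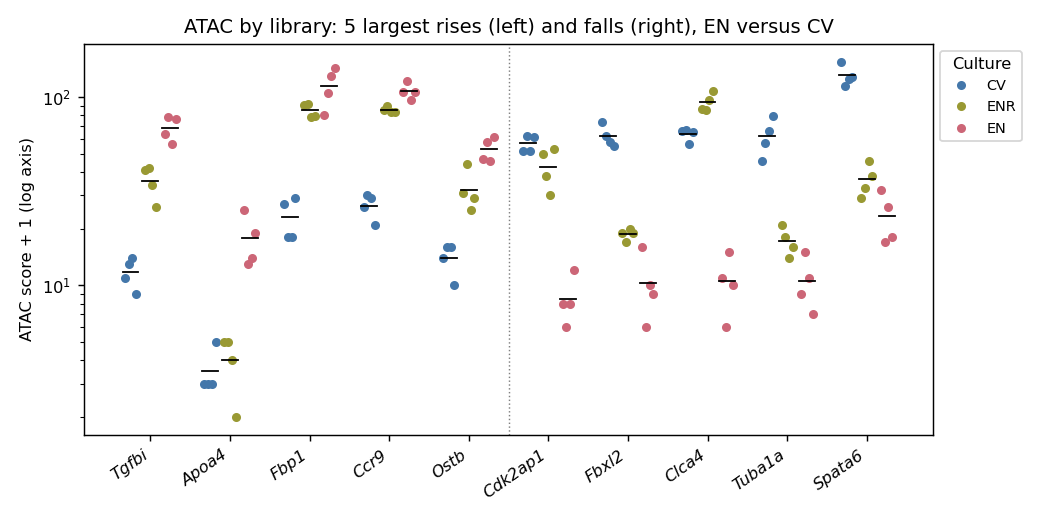
ATAC score + 1 on a log axis in each library at the regions with the largest rises and falls from CV to EN at gene starts; dots are libraries, colours are cultures and the horizontal line is the mean score + 1. At each of the regions named, the 4 EN libraries do not overlap with the 4 CV libraries.

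Between CV and ENR, 565 regions were higher and 1461 lower in CV, beside 5.11% and 10.7% of all regions, a split that turned to 946 and 918 after median ratio scaling and to 1058 and 949 after quantile normalization. The largest rises in CV were at E230001N04Rik (2.14 ± 0.26), Snx32, a sorting nexin (2.02 ± 0.22), Agpat4, an acyltransferase of phospholipid synthesis (1.93 ± 0.24), Spata6 (1.85 ± 0.20) and Dlec1 (1.84 ± 0.23), and limma adjusted p ranged from 7.5e-06 to 3.8e-05. The largest falls were at Trim72, a membrane repair protein (−1.95 ± 0.25), Fbp1 (−1.92 ± 0.19), Ccr9 (−1.70 ± 0.13), Ppard, a fatty acid-sensing nuclear receptor (−1.68 ± 0.26), and Cyp2c66, a cytochrome P450 (−1.64 ± 0.27). Agpat4 mRNA was also highest in CV, at 32.7 ± 2.8 CPM against 5.57 ± 1.2 in ENR and 2.11 ± 0.51 in EN. Between EN and ENR, 1444 regions rose and 1429 fell, beside 11.6% and 12.5% of all, and quantile normalization gave 762 and 2089. Apoa4 (2.19 ± 0.34) and Cyp2d22 (1.83 ± 0.24) rose most, and Clca4 and Cdk2ap1 (−2.34 ± 0.22) fell most. Cyp2d22, another cytochrome P450, had ATAC scores of 8, 14, 11 and 19 in CV, 10, 15, 10 and 15 in ENR, and 56, 49, 37 and 45 in EN.

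H3K27ac was called changed more often at these promoters than over the whole table. Their median H3K27ac score was 62.9, against 3.22 in the regions without strong H3K4me3, and the part of the score level in how often regions were called was not tested. Their share of the H3K27ac score was 57.4% ± 3.23 in CV, 70.9% ± 1.60 in ENR and 66.4% ± 2.88 in EN (SD, n = 3), and their mean score 61.4, 79.0 and 88.1, so CV was the lowest on both measures. From CV to EN, 2995 regions rose and 457 fell (limma adjusted p under 0.05), which is 26.9% of the regions against 7.03% of all 94215 tested, of which 5.07% rose and 1.96% fell. In all, 2162 (16.8%) rose and 435 (3.38%) fell by more than 1 on the log2 scale, against 4.18% and 1.93% of all regions. The median log2 difference was 0.40 over the regions and −0.14 over the whole table. The number of rises depended on the scaling: median ratio scaling gave 2345 rises and 579 falls, with medians of 0.27 over the regions and −0.22 over the table, and quantile normalization gave 1040 rises and 887 falls, with medians of 0.02 and −0.02. Under all 3 scalings, 1025 regions rose and 442 fell. Without one EN library the called regions numbered 1878 to 2058 in place of 3452, and a fit with 1 spread for all score levels (no trend) called 214.

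The largest H3K27ac rises from CV to EN were at Sis, Slc47a1, Hnf4g, Rbp2 and Zbtb7b. At Sis (chr3:72770494-72770896) the H3K27ac scores were 2, 6 and 6 in CV, 16, 15 and 15 in ENR, and 130, 79 and 153 in EN, a log2 difference of 4.47 ± 0.47 (SE, limma adjusted p = 1.3e-07). Sis mRNA rose from 1235 ± 85.2 CPM in CV through 4475 ± 158 in ENR to 27938 ± 1065 in EN (edgeR adjusted p = 5.7e-18 for EN against CV). The 3 EN libraries lay far above all others, and ENR above CV. At Hnf4g itself (chr3:3634388-3634884) the scores were 2, 8 and 17 in CV, 20, 13 and 21 in ENR, and 105, 49 and 101 in EN (3.37 ± 0.53, limma adjusted p = 5.8e-05), and its mRNA was 122 ± 5.0, 369 ± 9.2 and 1406 ± 105 CPM. Rbp2, the retinol-binding protein of the enterocyte cytosol (chr9:98391122-98391661), had 5, 23 and 28 in CV, 32, 21 and 36 in ENR, and 157, 117 and 134 in EN (3.08 ± 0.44, limma adjusted p = 1.7e-05). Slc47a1, a cation and drug exporter, rose by 3.41 ± 0.56, with CV and ENR both at 2 to 20 and EN at 87 to 113, and Zbtb7b, a zinc finger repressor, rose by 3.03 ± 0.55 from lower scores (1 to 5 in CV and 24 to 32 in EN). H3K27ac at Apoa4 rose with its ATAC signal, from 12, 22 and 33 in CV and 32, 18 and 22 in ENR to 149, 123 and 148 in EN (2.70 ± 0.38, limma adjusted p = 1.6e-05).

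The largest H3K27ac falls were at Axin2, Dok7, Tgif2, Ccdc3 and Ccnd2. At Axin2 (chr11:108783166-108783529), a direct Wnt target and feedback inhibitor, the H3K27ac scores were 84, 63 and 49 in CV, 58, 47 and 42 in ENR, and 5, 3 and 6 in EN (−3.55 ± 0.43, limma adjusted p = 1.2e-06). The ATAC scores of that region were 2 to 4 in every library, so at this width of 363 bp the acetylation moved and accessibility was near the floor throughout. At Tgif2 (chr2:156665537-156667177) the scores were 104, 66 and 125 in CV, 99, 150 and 94 in ENR, and 10, 12 and 7 in EN (−3.20 ± 0.36, limma adjusted p = 3.1e-07). At Ccnd2 (chr6:127100037-127100885), which encodes cyclin D2, they were 135, 73 and 114 in CV, 82, 99 and 76 in ENR, and 2, 16 and 33 in EN (−3.13 ± 0.50, limma adjusted p = 8.2e-05). At these 3, CV and ENR overlapped and EN lay below both. The mRNA of Axin2 (69.3 ± 4.3, 80.7 ± 4.3 and 1.22 ± 0.33 CPM) and Tgif2 (34.5 ± 2.2, 31.3 ± 1.9 and 1.07 ± 0.61 CPM) was also lowest in EN, and Ccnd2 mRNA fell over both steps (536 ± 11, 217 ± 12 and 44.0 ± 4.0 CPM). Dok7, an adaptor of receptor tyrosine kinases (68, 45 and 70 in CV, 18, 22 and 13 in ENR, 2, 5 and 11 in EN), and Ccdc3, a secreted protein (40, 38 and 56, then 11, 12 and 4, then 5, 6 and 2), were instead highest in CV and fell by 3.34 ± 0.51 and 3.17 ± 0.55.

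**Figure D3:**
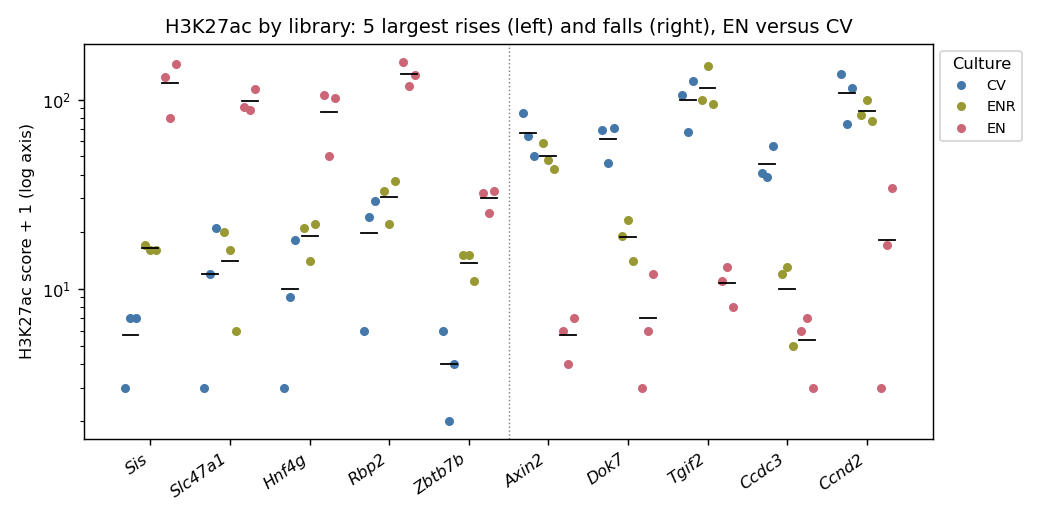
H3K27ac score + 1 on a log axis in each library at the regions with the largest rises and falls from CV to EN at gene starts; dots are libraries, colours are cultures and the horizontal line is the mean score + 1. Sis runs from 2 to 6 in CV to between 79 and 153 in EN, and Axin2 from 49 to 84 in CV to between 3 and 6 in EN.

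Fewer H3K27ac changes were called in the other contrasts. From ENR to EN, 504 regions rose and 241 fell, 5.80% of the regions against 1.57% of all (1.22% and 0.353% in each direction), but median ratio scaling turned the split to 192 and 603 and quantile normalization to 166 and 300. The rises were led by Erlin1, an endoplasmic reticulum protein of lipid control (14, 14 and 16 in CV, 9, 4 and 6 in ENR, 75, 40 and 57 in EN, 3.00 ± 0.48, limma adjusted p = 0.00047), and Slc47a1. The falls were led by Tgif2 (−3.43 ± 0.36) and Ccnd1, cyclin D1, another Wnt-responsive gene (43, 64 and 39 in CV, 66, 59 and 60 in ENR, 9, 12 and 1 in EN, −3.29 ± 0.51, limma adjusted p = 0.00032). In CV against ENR, 53 regions were higher and 1141 lower, 9.29% of the regions against 1.83% of all (0.541% and 1.29%), with 42 and 2316 after median ratio scaling and 51 and 170 after quantile normalization. Notch3, a Notch receptor, was acetylated in CV (32, 57 and 50) and at low scores in ENR (3, 7 and 5) and EN (9, 19 and 13), with 3.00 ± 0.51 between CV and ENR (limma adjusted p = 0.00093). At Trim2, a ubiquitin ligase, H3K27ac was also higher in CV than in ENR (40, 45 and 34 against 5, 4 and 7, 2.70 ± 0.57, limma adjusted p = 0.0076), while its mRNA was lower in CV (192 ± 4.5 against 296 ± 9.5 CPM). The opposite was seen at Cirbp, a cold-inducible RNA-binding protein (chr10:79630232-79631441), where H3K27ac was 10, 16 and 26 in CV against 92, 110 and 113 in ENR and 105, 120 and 169 in EN (−2.62 ± 0.33 between CV and ENR, limma adjusted p = 1.8e-05). Cirbp ATAC scores overlapped in all 3 cultures, between 114 and 137. Ube2cbp, a ubiquitin ligase-like protein, fell by 3.00 ± 0.63 in CV against ENR, but the EN scores of 3, 23 and 12 spanned both.

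Hnf4g reads gathered in these promoters in EN. Of all Hnf4g reads in regions, the promoters held 31490 of 84340 in CV (37.3%, exact 95% interval 37.0 to 37.7), 135671 of 352600 in ENR (38.5%, 38.3 to 38.6) and 1033631 of 1816497 in EN (56.9%, 56.8 to 57.0). Relative to width, they held 21.9 RPM (reads scaled to the library's total in regions) per kb in CV, 22.6 in ENR and 33.4 in EN, while the regions without strong H3K4me3 held 25.9, 26.0 and 18.5. There was 1 library per culture, so there is no test, and the intervals cover counting error only, since reads are not independent molecules. Depth and culture differ together: the median region had 2 reads in CV, 6 in ENR and 56 in EN, and 5728, 1089 and 27 regions had none, which allows at most 0.00356%, 0.000851% and 0.000165% of a library's reads in each (a floor of 3 reads). With reads and widths pooled, promoters at start sites went from 20.7 and 21.2 to 33.3 RPM per kb in EN. The 2279 regions away from starts had 31.9, 34.3 and 34.0 by that measure. The median region had 12.5, 14.1 and 24.8 RPM per kb at starts and 0, 18.2 and 21.9 away from them. By the median both sets were thus highest in EN, and the contrast depends on the summary. The regions with both marks held 13.8%, 12.3% and 8.03% of reads, of which 1 region alone held 1285, 5071 and 33215, so the shares of the other sets move with it.

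The 5 regions with the most Hnf4g reads in EN were at Map3k11, a kinase upstream of JNK (15 reads in CV, 70 in ENR and 895 in EN), Slc25a1 (22, 86 and 869) and Mast3 (30, 67 and 860), at chr12:113368184-113370063 near Mir203 (13, 103 and 846) and at chr17:36220061-36221520 near H2-Bl (24, 57 and 830). H3K27ac rose from CV to EN at 4 of them under limma, by 1.30 ± 0.22 at Slc25a1, 1.67 ± 0.27 at Mast3, 1.40 ± 0.21 at the region on chromosome 12 and 1.94 ± 0.31 at that on chromosome 17 (limma adjusted p = 0.00018, 8.8e-05, 2.5e-05 and 7.8e-05). After quantile normalization, Slc25a1 (adjusted p = 0.089) and the region on chromosome 12 (adjusted p = 0.063) no longer passed. At Map3k11 H3K27ac was 89, 66 and 68 in CV, 89, 77 and 110 in ENR, and 95, 148 and 112 in EN (0.65 ± 0.26, limma adjusted p = 0.14). At Mast3 the H3K27ac scores were 50, 54 and 57 in CV, 82, 68 and 50 in ENR, and 156, 166 and 197 in EN, and ATAC rose by 0.80 ± 0.09 (limma adjusted p = 3.1e-06).

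Over all these promoters, those with more Hnf4g reads per kb in EN were more often called higher in H3K27ac. When they were divided into 10 equal groups by EN reads per kb, the share called higher from CV to EN went from 5.60% in the lowest group to 54.4% in the highest, and the share called lower from 6.14% to 0.233%. The median log2 difference went from −0.05 to 0.96. For ATAC the share called higher went from 13.5% to 33.4% and that called lower from 20.3% to 7.62%. In CV against ENR, the share with lower H3K27ac went from 1.87% to 21.9%, and in EN against ENR the share with higher H3K27ac from 0.389% to 9.72%. The groups also differed in their mean signal: from lowest to highest group the median mean score went from 35.4 to 72.0 for ATAC, from 32.8 to 87.3 for H3K27ac and from 29.5 to 63.0 for H3K4me3, and its part in these shares was not tested. The HNF4 letters were found within 300 bp around the centre of 0.234% of the lowest group and 1.87% of the highest. In the same windows the share was 0.592% over all these promoter-like regions, 2.59% in regions without strong H3K4me3 and 2.28% over the whole table. Even the highest group was thus below the share of the whole table. The top group already held 27.7% of the promoters' Hnf4g reads in CV and 27.6% in ENR, beside 29.0% in EN.

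**Figure D4:**
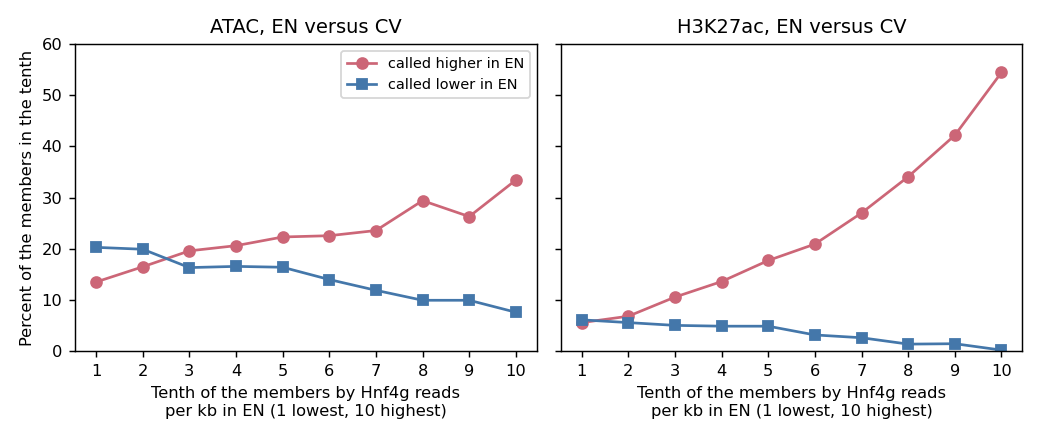
Percent of regions called higher or lower in EN than in CV for H3K27ac and for ATAC, in 10 groups of the promoter-like regions ordered by Hnf4g reads per kb in EN. The share with higher H3K27ac climbs from 5.60% to 54.4%, and that with higher ATAC signal from 13.5% to 33.4%.

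Gene lists show which promoters moved. For comparison, from CV to EN 23.3% of all these regions were called higher and 3.56% lower in H3K27ac, and 22.8% and 14.3% in ATAC, and 37.8% and 44.0% of all transcripts in mRNA. Of 24 enterocyte genes, 12 had one of these regions at a start, 6 (Anpep, Krt20, Ptk6, Slc15a1, Slc6a19 and Treh) had a region of weaker H3K4me3, and 6 (Lct, Apoa1, Slc2a5, Slc2a2 and Cdhr5 among them) had none. At the 12, H3K27ac rose at 8 and fell at 0 from CV to EN (limma adjusted p under 0.05), with a median log2 difference of 1.53, against 0.40 over all promoter-like regions. ATAC rose at 8 and fell at 0 (median 0.73, against 0.07), and after quantile normalization 7 rose and 1 fell. All 12 mRNAs rose. The lowest ATAC difference of the list was at Mttp, the chylomicron assembly protein, where scores of 196, 182, 144 and 218 in CV and 133, 195, 166 and 201 in EN overlapped (−0.09 ± 0.14). The lowest H3K27ac difference was at Dpp4, a brush border peptidase, where scores overlapped (77, 63 and 79 in CV, 48, 96 and 62 in EN, −0.14 ± 0.31), although its ATAC signal rose by 0.80 ± 0.15 (limma adjusted p = 0.00042).

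Of 22 Wnt target and stem cell genes, 18 had one of these regions, while Nkd1 and Notum had both marks and Olfm4 and Tnfrsf19 a region of weaker H3K4me3. H3K27ac fell at 11 of the 18 and rose at 0 (median −1.24), ATAC fell at 10 and rose at 2 (median −0.58), and all 13 mRNAs measured fell. After quantile normalization H3K27ac fell at 14, and ATAC fell at 10 and rose at 0. At Lgr5, the receptor that marks intestinal stem cells (chr10:115023230-115024435), H3K27ac was 92, 71 and 79 in CV, 57, 61 and 69 in ENR, and 10, 7 and 9 in EN (−3.08 ± 0.37, limma adjusted p = 1.1e-06). Ascl2, a stem cell transcription factor (chr7:150153770-150155401), had the largest ATAC fall of the list, with 68, 55, 56 and 71 in CV, 59, 56, 47 and 50 in ENR, and 14, 24, 13 and 14 in EN (−1.91 ± 0.18, limma adjusted p = 3.0e-07). Lgr4, the more widely expressed relative of Lgr5, went both ways: ATAC rose by 0.48 ± 0.12 (limma adjusted p = 0.0036, and 0.32 after quantile normalization), while H3K27ac fell by 0.97 ± 0.22 (limma adjusted p = 0.0047). At Znrf3, a ubiquitin ligase that clears Wnt receptors, H3K27ac overlapped between CV (134, 102 and 150) and EN (141, 112 and 99).

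**Figure D5:**
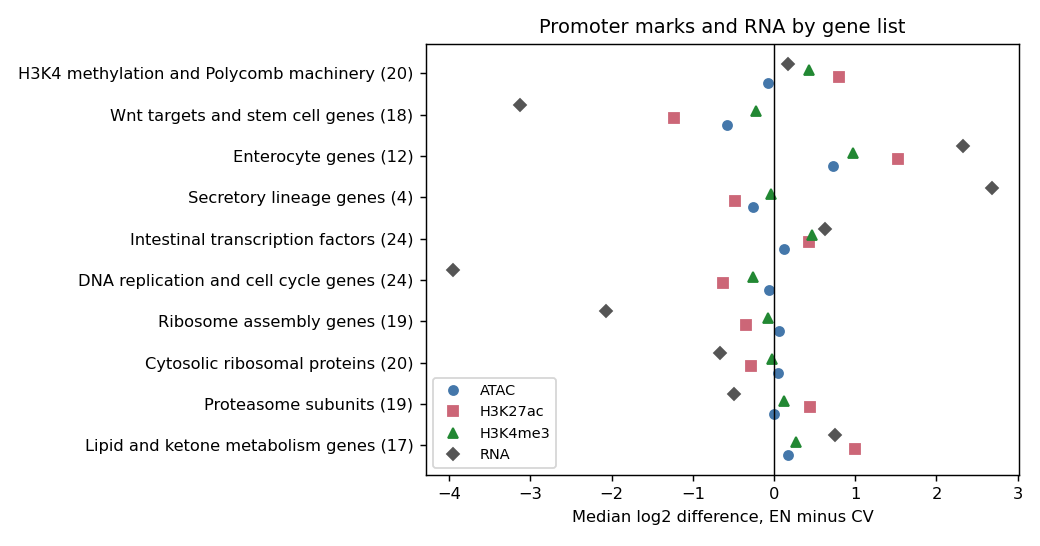
Median log2 difference between EN and CV for ATAC, H3K27ac, H3K4me3 and RNA over the members of each gene list, with the number of regions in brackets. H3K27ac medians run from −1.24 for Wnt and stem cell genes to 1.53 for enterocyte genes and kept their sign under median ratio scaling and quantile normalization, whereas the ATAC medians of ribosomal protein, ribosome assembly, proteasome, transcription factor and lipid genes turned below 0 after quantile normalization, and the RNA medians of ribosomal protein and proteasome genes turned above 0 on the copy scale and that of H3K4 and Polycomb machinery below 0 in TPM.

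At growth genes, mRNA was called lower at more genes than the promoter signals were, but the assays differ in how often they call a fall. From CV to EN, 44.0% of all transcripts were called lower, against 3.56% of all these regions in H3K27ac and 14.3% in ATAC. The counts below therefore do not compare the size of the changes between assays. Of 25 DNA replication and cell cycle genes, 24 had such a region, and mRNA fell in 21 of the 21 measured (median log2 difference −3.95). H3K27ac fell at 8 of the 24 and rose at 0 (median −0.63), and ATAC fell at 5 and rose at 3 (median −0.07). ATAC fell at 9 and rose at 3 after median ratio scaling, and fell at 10 and rose at 2 after quantile normalization, when H3K27ac fell at 10. The median log2 ratio of the mean H3K4me3 scores was −0.26. At Ccna2, which encodes cyclin A2, ATAC was 171, 168, 179 and 159 in CV, 263, 207, 254 and 233 in ENR, and 313, 343, 407 and 333 in EN (1.03 ± 0.10, limma adjusted p = 2.5e-07). After quantile normalization the log2 difference was 0.69. Ccna2 mRNA was 142 ± 3.6, 221 ± 9.7 and 5.37 ± 0.95 CPM. Rfc3, a subunit of the clamp loader, likewise gained ATAC signal (0.82 ± 0.12, limma adjusted p = 3.0e-05) as its mRNA fell from 29.2 ± 3.6 to 11.6 ± 0.82 CPM. At Tyms, thymidylate synthase, ATAC fell by 0.74 ± 0.20 (limma adjusted p = 0.0073). All 19 ribosome assembly mRNAs fell (median −2.07), with H3K27ac called higher at 1 promoter and lower at 1, and ATAC at 2 and 4 of 19. After quantile normalization H3K27ac fell at 11 and rose at 0, and ATAC fell at 7 and rose at 0. Among them Polr1b, a subunit of RNA polymerase I, lost H3K27ac (93, 54 and 73 in CV, 67, 68 and 85 in ENR, 39, 31 and 18 in EN, −1.33 ± 0.34, limma adjusted p = 0.014). The marks parted at Utp18, of the small subunit processome, which lost ATAC signal (−0.73 ± 0.09, limma adjusted p = 9.2e-06). Its H3K27ac was called higher (0.58 ± 0.18, limma adjusted p = 0.039), a call lost after quantile normalization. Rrp9 gained ATAC signal by 0.55 ± 0.11, a call lost after quantile normalization (adjusted p = 0.076), and at Rrp12 ATAC fell by 1.15 ± 0.31. For both, ribosome assembly factors, mRNA fell.

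Of 20 ribosomal protein promoters, ATAC rose at 5 and fell at 4, H3K27ac rose at 2 and fell at 3, and 19 of 19 mRNAs fell (median −0.66), but on the scale of mRNA copies, set by spike-ins, none passed and the median was 0.19. The scaling changed these counts too: H3K27ac rose at 2 and fell at 6 after median ratio scaling and rose at 1 and fell at 11 after quantile normalization (medians −0.28, −0.41 and −0.91), and ATAC rose at 3 and fell at 5 or 6. Rps19 shows the marks parting: ATAC rose from 169, 201, 187 and 237 in CV to 311, 334, 344 and 340 in EN (0.75 ± 0.09, limma adjusted p = 7.2e-06), and H3K27ac fell from 340, 242 and 248 to 60, 96 and 150 (−1.51 ± 0.23, limma adjusted p = 4.9e-05). At Rpl4 ATAC fell by 1.24 ± 0.17 (limma adjusted p = 1.7e-05), and at Rpl7 both rose, ATAC by 0.79 ± 0.09 and H3K27ac by 1.48 ± 0.28, the latter not passing after quantile normalization (adjusted p = 0.083). Of 19 proteasome promoters, H3K27ac rose at 4 and fell at 0, and ATAC rose at 3 and fell at 3, while 16 of 19 mRNAs fell (on the copy scale 4 rose and 0 fell). The H3K27ac rises numbered 2 after median ratio scaling and 0 after quantile normalization, with 1 fall. Psmb6, a catalytic subunit, had higher H3K27ac (1.48 ± 0.35, limma adjusted p = 0.0063) and lower ATAC (−0.98 ± 0.19, limma adjusted p = 0.00051) in EN, and Psma3, an alpha ring subunit, gained ATAC signal (0.69 ± 0.11, limma adjusted p = 0.00011).

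Among regulators, the 24 intestinal transcription factor genes with such a region had H3K27ac called higher at 6 and lower at 1, ATAC at 7 and 3, and mRNA at 12 and 6 of 20, with 2 and 3 for H3K27ac after quantile normalization. The H3K27ac share is near that of all these regions, and ATAC turned to 4 higher and 5 lower under both other scalings. Foxa2, a forkhead factor, lost H3K27ac (137, 117 and 82 in CV, 94, 78 and 53 in ENR, 33, 27 and 23 in EN, −1.96 ± 0.32, limma adjusted p = 0.00011). ATAC fell by 0.98 ± 0.17 at the related Foxa3 and rose by 1.28 ± 0.31 at Isx, an intestinal homeobox factor (limma adjusted p = 0.00018 and 0.0034). Of 21 annotated genes for H3K4 methylation and Polycomb proteins, 20 had such a region. H3K27ac rose at 10 of these and fell at 0, ATAC at 2 and 2, and mRNA at 10 and 7, and after quantile normalization 2 rises in H3K27ac passed and ATAC fell at 8 and rose at 0. At Setd1a, the catalytic subunit of a SET1 complex, H3K27ac was 70, 92 and 82 in CV, 201, 206 and 179 in ENR, and 224, 232 and 246 in EN (1.52 ± 0.20, limma adjusted p = 3.0e-06, and 0.0054 after quantile normalization). CV was the low culture there. At Cxxc1, the CpG-binding subunit of the same complex, H3K27ac overlapped (54, 87 and 51 in CV, 59, 55 and 62 in EN). Kdm6a, an H3K27 demethylase, gained ATAC signal (0.48 ± 0.09, limma adjusted p = 0.00031, and 0.19 after quantile normalization).

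Of 19 annotated lipid and ketone genes, 17 had such a region, with H3K27ac called higher at 10 and lower at 2, ATAC at 4 and 2, and mRNA at 10 and 4. H3K27ac was called higher at 5 and lower at 2 after quantile normalization, and ATAC turned to 1 higher and 3 lower under both other scalings. Scarb1, a lipoprotein receptor, fell in ATAC (−1.41 ± 0.19, limma adjusted p = 1.7e-05), in H3K27ac (−1.49 ± 0.45, limma adjusted p = 0.039) and in mRNA (33.9 ± 1.5, 14.9 ± 1.0 and 3.69 ± 0.86 CPM). Secretory genes were rarely among these promoters, with 4 of 19. H3K27ac rose at Xbp1, a factor of secretory cells (0.91 ± 0.14, limma adjusted p = 7.2e-05), but its difference was 0.14 with an adjusted p of 0.71 after quantile normalization. At Agr2, a disulfide isomerase of goblet cells, ATAC fell by 1.02 ± 0.23 (limma adjusted p = 0.0022) as mRNA rose from 56.2 ± 1.9 to 362 ± 30 CPM.

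Most measured mRNAs belonged to genes with such a region at an annotated start, though which start a transcript used was not measured. Of 9288 transcripts tested, 8126 (87.5%) belonged to genes with such a region at a start, with a median of 23.6 TPM, against 6.40 where the start held both marks, 6.05 where it held a region of weaker H3K4me3 and 3.80 where it held none. The transcripts listed are those with a quantified protein, so silent genes are few. Of the 8126, 3025 rose and 3693 fell from CV to EN, 3145 and 3431 from ENR to EN, and 2872 were higher and 2762 lower in CV than in ENR (edgeR adjusted p under 0.05). Over all transcripts 37.8% rose and 44.0% fell in the first contrast, 38.7% and 40.5% in the second, and 34.7% and 34.6% in the third, so these transcripts were called about as often as all. The scale decides this split: on spike-in-scaled copies 4447 rose and 1256 fell from CV to EN, 5446 and 844 from ENR to EN, and 1866 and 471 in CV against ENR, while limma on TPM gave 2064 and 4798, 2536 and 3999, and 3792 and 1881. The median log2 difference between EN and CV over all transcripts was −0.08 in the edgeR fit, −0.34 on TPM and 0.62 on copies.

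Changes in mRNA between EN and CV were compared with those at the promoter. Across 7683 genes, each taken with its strongest H3K4me3 region and its most abundant transcript, Pearson's r between the log2 differences of EN and CV was 0.591 for RNA and H3K27ac, 0.570 for RNA and H3K4me3 and 0.305 for RNA and ATAC (Spearman's rho 0.547, 0.548 and 0.205). Genes are not independent replicates, and these values are descriptions. Of 2123 genes whose H3K27ac rose, mRNA rose in 1364 (64.2%) and fell in 425 (20.0%). Of 214 whose H3K27ac fell, mRNA fell in 201 (93.9%) and rose in 3. For genes where H3K27ac was not called, mRNA rose in 28.8% and fell in 55.3%. On copies, the shares that rose and fell were 82.4% and 2.03% for genes with higher H3K27ac, 5.61% and 78.0% for those with lower, and 46.1% and 18.7% for those not called, so the order of the 3 groups was the same on both scales. With H3K27ac scaled by quantiles, 595 genes were called higher and 547 lower, of which 75.1% and 86.1% had mRNA that moved the same way. For ATAC, mRNA rose in 43.5% and fell in 40.1% of 1944 genes with higher signal, and rose in 21.2% and fell in 64.8% of 914 with lower signal, against 38.7% and 45.9% of the genes not called. These shares depended on the RNA scale: on copies they were 62.7% and 10.3% for higher, 35.3% and 34.8% for lower and 55.7% and 14.3% for not called, and in TPM 30.9% and 55.7%, 14.0% and 75.9%, and 26.0% and 59.6%. From ENR to EN, mRNA rose in 93.5% of 307 genes with higher H3K27ac and fell in 97.9% of 140 with lower. In CV against ENR, 898 genes had lower H3K27ac, and mRNA was lower in 57.7% of them and higher in 18.8%, against 31.9% and 38.6% of the genes not called. On copies 10.4% were lower and 7.91% higher, and in TPM 43.3% and 28.7%. Among the marks, r between EN and CV differences over the 12853 regions was 0.622 for H3K27ac and H3K4me3, 0.342 for ATAC and H3K4me3, and 0.319 for ATAC and H3K27ac, where the points share libraries, widths and scaling.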

How the data were processed

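The members and gene lists were chosen with earlier results of these data known. Of the 66 samples in the series, 27 of 37 histone mark libraries were used, with 12 ATAC, 12 RNA and 3 Hnf4g libraries, and the other 10 histone mark libraries were not used here. For ATAC, H3K27ac, H3K4me3 and H3K27me3 the deposited values are scores: the authors aligned reads to mm9 with BWA, removed low-quality and duplicate reads, called peaks with MACS2 (2.0 in the submitters' processing notes), merged them, counted reads per region, normalised between libraries and rounded. H3K27me3 regions were extended to 1000 bp. The Hnf4g values are raw counts of reads, deposited by the authors without normalization. For RNA the authors deposited expected counts and TPM from kallisto (0.43.0 in the submitters' processing notes), limited to transcripts with a quantified protein, and a signal of mRNA copies scaled to spike-ins. The scaling between libraries can change directions, so they were checked under other scalings.

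ATAC and H3K27ac were tested with limma 3.58.1 (R 4.3.3, trend) on log2(score + 1), a pseudocount of 1 that understates changes of low scores, in regions above 0 in at least 3 libraries, and all members passed. Expected counts were rounded and tested with edgeR 4.0.16 (quasi-likelihood, TMM). Adjusted p-values are Benjamini-Hochberg over all regions or transcripts. H3K4me3 and H3K27me3 were not tested. Named regions were the largest called changes each way at gene starts without overlap between libraries, the most H3K4me3 or Hnf4g reads, the regions at each threshold, the widest runs and, per gene list, the largest rise and fall in H3K27ac and in ATAC. Same-numbered ATAC libraries of different cultures deviated together (12 pairs, mean r 0.351, range 0.141 to 0.633). Pairs with unlike numbers had a lower mean but overlapped with these (36 pairs, mean r −0.116, range −0.668 to 0.407). Among unlike numbers, replicates 1 with 2 and 3 with 4 deviated together (r 0.0795 to 0.407). Pairs across these 2 sets deviated in opposite directions (r −0.668 to −0.0323). The ATAC libraries thus split into replicates 1 and 2 against 3 and 4 in all 3 cultures, as read from the data. The main fit did not model this split, the labels do not name its source, and its cause was not tested. Alternatives were DESeq2 1.42.0, median ratio and quantile scaling, filters, thresholds, the replicate block and leaving out each library. The scripts were tested on simulated data. Some results are not reported here.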

Additional observations from a re-analysis of the deposited data

Results flagged for a closer look

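In groups of 4 libraries, a library was singled out where it stood far from the other 3 (Dixon's test). Of 375 groups tested 23 were singled out, and for continuous values chance alone singles out about 5% of groups. Low ATAC scores are rounded and tied, so the smallest step can single out a library, and that rate need not hold for them. Among ATAC scores these were Apoa4 in CV replicate 4 (4, others 2), the Hnf4g promoter in CV replicate 1 (2, others 3), Axin2 in CV replicate 4 and ENR replicate 4 (3 each, others 4), Erlin1 in EN replicate 3 (0, others 1), Cyp2c66 in ENR replicate 3 (23, others 17 to 18) and Tgif2 in ENR replicate 4 (43, others 25 to 28). The others were Ccnd2 in ENR replicate 1 (17, others 24 to 25), Ascl2 in EN replicate 2 (24, others 13 to 14), Dpp4 in CV replicate 1 (45, others 29 to 31), Rrp12 in EN replicate 1 (3, next 12) and Rpl4 in EN replicate 3 (12, next 16). Among RNA values these were Agr2 in CV replicate 3 (59.1 CPM, others 55.1 to 55.4), Axin2 in EN replicate 2 (1.71, others 1.01 to 1.07), Ccna2 in CV replicate 1 (136, others 143 to 144), Ccnd2 in CV replicate 3 (519, others 541 to 543) and in ENR replicate 4 (236, others 210 to 214), and Lgr5 in EN replicate 2 (0.642, others 2.14 to 2.28). The last were Polr1b in EN replicate 3 (23.5, others 17.1 to 18.1), Rpl4 in EN replicate 3 (961, others 1114 to 1132), Trim2 in ENR replicate 1 (282, others 299 to 302), Tyms in CV replicate 4 (72.3, others 90.8 to 93.5) and Utp18 in CV replicate 3 (71.3, others 63.3 to 64.3).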

How the results depend on the processing

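The number of called promoter-like regions moved most for H3K27ac. From CV to EN it was 214 in a fit with no trend, 1927 after quantile normalization and 2096 at an adjusted p under 0.01. From ENR to EN it was 1182 among regions with a mean score of at least 10, 0 with no trend (1550 at an unadjusted p under 0.05), 466 after quantile normalization and 339 at 0.01. In CV against ENR it was 2358 after median ratio scaling, 0 with no trend (1781 unadjusted), 221 after quantile normalization and 523 at 0.01. For ATAC, an adjusted p under 0.01 left 3151 from CV to EN, 1511 from ENR to EN and 940 in CV against ENR, no trend gave 1433 and 887 in the last 2 contrasts, and the top 10% by H3K4me3 gave 1350 in CV against ENR. RNA on copies gave 2337 in CV against ENR. The cause of these moves was not tested, apart from the stricter thresholds.

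With the replicate number as a block, H3K27ac gave 0 calls in all 3 contrasts by limma, with 2 residual degrees of freedom and 4936, 2689 and 2517 regions at an unadjusted p under 0.05, and its numbers did not pair (5 pairs, mean r 0.0185). The block gave 5111, 3316 and 2366 ATAC regions and 6738, 6563 and 5632 RNA transcripts, whose numbers did not pair either (mean r 0.0132).

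Leaving out each replicate in turn gave 4105 to 4744, 2121 to 2902 and 1385 to 2354 ATAC regions (EN against CV, EN against ENR, CV against ENR), 1878 to 3127, 130 to 1124 and 382 to 946 H3K27ac regions, and 6623 to 6714, 6420 to 6586 and 5384 to 5725 transcripts. H3K27ac counts from CV to EN fell past 1.5 times without EN replicate 2 (2058), 3 (1942) or 4 (1878). From ENR to EN they were 1124 without CV replicate 3, 173, 265 and 130 without EN replicates 2, 3 and 4, and 492, 257 and 226 without ENR replicates 1, 2 and 4. In CV against ENR they were 747 without CV replicate 5, 686, 570 and 637 without EN replicates 2, 3 and 4, and 523, 542 and 382 without ENR replicates 1, 2 and 4.

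The share at a start site was 85.3% at 1000 bp, 76.1% for regions ranked per kb and 95.0% for the top 10%. The Hnf4g shares per kb and for the top 10% were 33.7% and 30.6% in CV, 35.1% and 31.2% in ENR, and 53.3% and 48.9% in EN. Of 857 alternatives for 43 ATAC results at single regions, 850 kept direction and side of the threshold, and of 629 for 37 such H3K27ac results 535 did. Directions turned at Cxxc1 H3K27ac (−0.22 to 0.16 leaving out each library, above 0 without CV replicate 4), Dpp4 H3K27ac (0.16 with the block, and −0.41 to 0.086 leaving out each library, above 0 without EN replicate 2), Utp18 H3K27ac (−0.11, quantile), Mttp ATAC (−0.21 to 0.029 leaving out each library, above 0 without EN replicate 1) and Xbp1 ATAC (−0.036, quantile). The 1 Hnf4g library per culture limits its values to description.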
